A study of Mus musculus with 17 samples.

Results

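The nuclear-encoded genes of the mitochondrial respiratory chain were followed in the cortex of control mice and of mice exposed to chronic unpredictable stress (CUS). The members were the protein-coding genes whose symbol starts with Ndufa, Ndufb, Ndufc, Ndufs or Ndufv (complex I), Sdha to Sdhd (complex II), Uqcr (complex III), Cox4 to Cox8 (complex IV) or Atp5 (complex V), without the Ndufaf assembly factors. This rule uses no measured value. It found 89 of 36293 genes in the bulk nuclear RNA-seq files, with 88 symbols, because Atp5o stands there under 2 gene identifiers, and 87 of 37608 genes in the single-nucleus tables, where Cox8c was missing. By their symbols, 36 members belong to complex I, 8 to complex II, 8 to complex III, 20 to complex IV and 17 to complex V. Ndufa4 and Ndufa4l2 are counted with complex IV, where the protein is found, and the 4 assembly factors Sdhaf1, Sdhaf2, Sdhaf3 and Sdhaf4 stay in complex II because their symbols start with Sdha.

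The respiratory chain sits in the inner membrane of mitochondria. Complexes I and II pass electrons from NADH and succinate to ubiquinone, complex III passes them on to cytochrome c, complex IV hands them to oxygen, and complex V, the ATP synthase, uses the proton gradient that complexes I, III and IV build. Most subunits are encoded in the nucleus and imported, a smaller set of core subunits is encoded in mitochondrial DNA (mtDNA), and complex II is entirely nuclear. Neurons depend on this chain for most of their ATP, and fast-spiking interneurons are known for a high demand.

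All mice were males with no transgene, C57BL/6 by the labels and C57Bl/6J by the study's methods. Bulk nuclear RNA-seq was done on nuclei of the medial prefrontal cortex (mPFC) of 4 control and 5 CUS mice at postnatal day 90, after behavioral tests, and single-nucleus RNA-seq (sNucDrop-seq) on neocortical nuclei of 4 control and 4 other CUS mice at postnatal day 80. Control mice were handled and kept in another room than the stressed mice, so the stress and the room cannot be told apart. Both assays read RNA inside nuclei, which holds unspliced as well as spliced transcripts.

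Bulk libraries held 26188825 to 30525015 reads on genes. Of 40000 nuclear barcodes, 26699 passed the filters, fewer than the study states for the same thresholds, with 1935 to 4235 nuclei and 4699542 to 12477099 unique molecular identifiers (UMIs, each 1 captured molecule) per mouse and at most 2 barcodes shared by any pair of mice. The nuclei of CUS mouse 2 stood apart from those of the other CUS mice in the genes described here. The main counts of calls and medians over genes that compare control with CUS nuclei are therefore given with and without this mouse. Others, such as medians by complex, are given with all mice only. The mouse was picked because it was low in these same genes, so no value without it is a test of a CUS difference. The nuclei were made in 2 batches of 2 control and 2 CUS mice, but the batch of each mouse is not given in the labels, so no value within a batch could be computed.

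The study follows the transcription factor YY1, whose binding sequence is found at the start of many genes for mitochondrial and ribosomal proteins. The 73 members with a RefSeq promoter (GRCm38.p6, 250 bases before to 50 after the start) were searched on both strands for 4 sets of letters: AAGATGGC for YY1, the palindromic core site of NRF1, CCGGAAGT for GABPA and AAGGTCA for ESRRA, factors known to act on genes of this chain. The YY1 letters stood in 10 of the 73 (13.7%, against 3.19% of 27025 genes), 7 of them in complex I and 3 in complex V. The other sets stood in 5 members for NRF1 (6.85% against 1.07%), 5 for GABPA (6.85% against 4.31%) and 8 for ESRRA (10.96% against 5.38%). In all 27 members held at least 1 of the 4 (37.0% against 13.3%), and Atp5k was the member with 2, those of NRF1 and ESRRA. These are matches of letters and were not tested as binding sites. The windows of the YY1 matches are printed because YY1 is the regulator the study examined. Capitals mark the matched letters, written along the gene's strand:

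Ndufa3, a complex I accessory subunit, chr7:3617384-3617413, match 23 bases after the start: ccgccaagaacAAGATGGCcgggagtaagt

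Ndufa9, a complex I accessory subunit, chr6:126849097-126849126, 30 bases after the start: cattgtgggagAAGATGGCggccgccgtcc

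Ndufs4, a complex I accessory subunit whose loss causes Leigh syndrome, chr13:114388045-114388074, 36 bases after the start: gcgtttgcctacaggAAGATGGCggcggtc

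Ndufs6, a complex I accessory subunit, chr13:73328433-73328462, 34 bases after the start: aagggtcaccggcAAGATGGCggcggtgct

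Ndufs7, a complex I core subunit with an iron-sulfur cluster, chr10:80249462-80249491, 25 bases after the start: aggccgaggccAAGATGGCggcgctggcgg

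Atp5j, a subunit of the ATP synthase stalk, chr16:84835046-84835075, 88 bases before the start: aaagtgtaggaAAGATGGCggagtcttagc

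Atp5j2, a membrane subunit of the ATP synthase, chr5:145191500-145191529, 24 bases after the start: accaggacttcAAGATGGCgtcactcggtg

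Atp5f1, a subunit of the ATP synthase stator stalk, chr3:105959248-105959277, reverse complement 3 bases before the start: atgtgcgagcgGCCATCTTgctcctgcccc

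The remaining YY1 matches, in Ndufb8 and Ndufc1, also lay after the start, at 39 and 23 bases, so 8 of the 10 lay within 40 bases after the start. The YY1 letters contain ATG, and the place of the start of translation was not examined. Atp5g2 and Atp5k carry the palindromic NRF1 letters and are shown because Atp5g2 had the smallest adjusted p of the members in bulk RNA and Atp5k passed the test in 1 class of nuclei. Uqcr10, the member that passed in the other class, had none of the 4 sets of letters, and its 250 bases before the start, at chr11:4704345-4704594 on the minus strand, held 38.8% G and C.

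Atp5g2, chr15:102671070-102671099, 42 bases before the start: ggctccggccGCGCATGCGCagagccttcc

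Atp5k, chr5:108434430-108434459, 50 bases before the start: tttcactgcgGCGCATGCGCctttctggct

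No member passed the test in bulk nuclear RNA of the mPFC, although most members were slightly higher in CUS mice. Read counts were compared gene by gene by edgeR's quasi-likelihood method, and p-values were adjusted after Benjamini and Hochberg over all 18394 genes tested, with a false discovery rate (FDR) of 0.05. Of the 84 members tested, 0 passed, against 606 of all genes (3.29%), and 5 had an unadjusted p under 0.05, all higher in CUS (5.95% of members, against 10.1% of all genes). Both edgeR's likelihood ratio test, which the study used, and DESeq2 called 2 members (7.23% and 7.68% of all genes). Without control mouse 4 the quasi-likelihood test called 3 (Atp5g2, Ndufb4 and Uqcr10), beside 2.74% of all genes. The level was higher in CUS for 62 of 84 members (73.8%, against 51.3% of all genes) and for 53 of 84 when TMM scaling, which corrects library sizes for composition, was left out. The median log2 fold change of members was 0.061, against 0.0060 for all genes. It was 0.020 without control mouse 1, 0.11 without control mouse 4 and 0.030 without TMM. Members ranged from -0.21 to 0.39. Bulk RNA cannot tell fewer cells of a type from less RNA per cell. In the same libraries all 6 astrocyte markers were lower in CUS, 2 of them past the test (Aqp4 and Gja1), with a summed level of 1614 to 1941 CPM (counts scaled to a common library total, here without TMM) in control and 1442 to 1780 CPM in CUS mice. All 4 markers of newly formed oligodendrocytes were lower too, 2 of them past the test (Bcas1 and Tcf7l2), at 133 to 171 CPM summed in control and 113 to 136 CPM in CUS mice. The 6 markers of mature oligodendrocytes and the 4 of oligodendrocyte precursors were also lower, with 0 past the test by edgeR. Of 7 striatal markers 6 were lower without passing the test and 1 was higher and passed (Pde10a), with a summed level of 678 to 1222 CPM in control and 1123 to 1394 CPM in CUS. Of 6 markers of Ndnf interneurons 2 were higher, of which Lamp5 passed, and 4 were lower, of which Ndnf passed. Of 4 claustrum markers 3 were lower, of which Nr4a2 passed. These 5 lists held all the markers that passed. The part of these markers in the members' values was not tested.

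In complex I, 28 of 36 members were higher in CUS, with a median log2 fold change of 0.08. Ndufb4, an accessory subunit of the membrane arm, was at 14.2, 10.9, 11.3 and 15.4 CPM in the 4 control mice and at 15.6, 16.3, 17.3, 16.8 and 15.1 CPM in the 5 CUS mice. Only CUS mouse 5 lay below the highest control. Its log2 fold change was 0.33 (SE 0.10), with an adjusted p of 0.0869 by edgeR's quasi-likelihood test. Ndufc2, another small membrane-arm subunit, stood at 9.44 to 11.3 CPM in control and 11.5 to 12.9 CPM in CUS mice (log2 fold change 0.17, SE 0.076, edgeR adjusted p 0.21), without overlap of the groups. The core subunit Ndufs1, which carries iron-sulfur clusters of the electron path, was at 49.6 to 55.4 CPM in control and 48.6 to 55.4 CPM in CUS mice. The core subunit Ndufv1, which binds NADH, had a log2 fold change of 0.13 (SE 0.082, edgeR adjusted p 0.393).

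In complex II, 4 of 8 members were higher, with a median of 0.019. The flavoprotein Sdha and the iron-sulfur subunit Sdhb had log2 fold changes of -0.03 (SE 0.049) and 0.04 (SE 0.055), with overlapping mice. The small membrane anchor Sdhd had 0.14 (SE 0.068) and the assembly factor Sdhaf4 0.28 (SE 0.13), with edgeR adjusted p of 0.261 and 0.237. Sdhaf1 had the largest fold change of the members, 0.39 (SE 0.22, edgeR adjusted p 0.323), from 17 to 42 reads per mouse, so its value is loose.

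In complex III, 7 of 8 members were higher, with a median of 0.087. Uqcr10, one of its smallest subunits, was at 7.36, 8.06, 8.25 and 11.1 CPM in control mice and at 9.63, 11, 10.2, 11.3 and 10.6 CPM in CUS mice. Control mouse 4 lay among the CUS mice and the other 3 controls lay below all of them. The log2 fold change was 0.28 (SE 0.11, edgeR adjusted p 0.174). The core protein Uqcrc1 had 0.00 (SE 0.074) and the Rieske iron-sulfur protein Uqcrfs1 0.03 (SE 0.12).

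In complex IV, 9 of 15 tested members were higher, with a median of 0.030. Cox7b2 was at 6.84 to 8.23 CPM in control and 5.63 to 7.57 CPM in CUS mice, the lowest fold change of the members (-0.21, SE 0.10, edgeR adjusted p 0.268). Cox7a2l, a relative of the Cox7a subunits, was at 22.2 to 26.1 CPM in control and 25.4 to 28.9 CPM in CUS mice (0.13, SE 0.065, edgeR adjusted p 0.264). Of the forms found in most tissues, Cox4i1, Cox5a, Cox6a1, Cox7a2 and Cox8a had fold changes between -0.01 and 0.03 on the log2 scale, Cox6b1 had -0.07 (SE 0.074) and Cox6c -0.14 (SE 0.080, edgeR adjusted p 0.329). The tissue-restricted forms Cox6a2, Cox6b2, Cox7a1, Cox8b and Cox8c were the 5 members below the count filter, with 58, 37, 46, 0 and 1 reads over all 9 mice.

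In complex V, 14 of 17 members were higher, with a median of 0.064. Atp5g1, Atp5g2 and Atp5g3 encode the same mature c subunit, the ring that turns in the membrane. Atp5g2 was at 12.2, 11.5, 13 and 14.3 CPM in control and at 14.7, 15.3, 14.7, 15.7 and 16.7 CPM in CUS mice. All 5 CUS mice lay above all 4 controls. Its log2 fold change was 0.28 (SE 0.077), and its adjusted p of 0.0647 by edgeR's quasi-likelihood test was the smallest of the members. Atp5g1 and Atp5g3 had 0.09 (SE 0.090) and 0.11 (SE 0.070), with overlapping groups. Atp5j2, a membrane subunit, was at 14.8, 15.4, 15.6 and 15.7 CPM in control and at 17.6, 15.8, 17.3, 18.2 and 17.8 CPM in CUS mice, again without overlap (0.18, SE 0.062, edgeR adjusted p 0.126). The catalytic pair Atp5a1 and Atp5b had -0.02 (SE 0.082) and -0.02 (SE 0.067). With Ndufc2 and Ndufa10, Atp5g2 and Atp5j2 made 4 of 84 members whose groups did not overlap, all higher in CUS, beside 4.06% of all genes in that direction.

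Per kilobase of gene span, the mean level over the 9 mice was highest for Atp5b (14.5 CPM per kb), then Atp5a1 (9.33) and Ndufv1 (6.04). Within the isoform sets, on this same per-length scale, Atp5g3 stood at 5.03, Atp5g1 at 2.41 and Atp5g2 at 1.50 CPM per kb, Cox4i1 at 4.73 against 0.063 for Cox4i2, Cox6a1 at 3.29 against 0.24 for Cox6a2, and Ndufa4 at 3.00 against 0.50 for Ndufa4l2. Ndufa4l2 overlaps Shmt2 and Cox6a2 overlaps Itgad on the other strand, so both low values are uncertain. In all, 11 members overlap another gene on the same strand and 26 one on the other strand. One of the Atp5o identifiers is a gene model of 242.585 kb that covers several other genes.

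The summed share of reads overlapped between the groups, and its difference was not tested. Members took 0.168, 0.177, 0.173 and 0.202% of the reads in control mice and 0.176, 0.177, 0.182, 0.191 and 0.182% in CUS mice, with means of 0.180% ± 0.015 (SD, n = 4) and 0.182% ± 0.0060 (SD, n = 5). Control mouse 4 had the highest share of all mice, and the CUS mice lay between it and the other controls or among them. Over the 84 tested members control mouse 1 was the lowest mouse for 42.

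**Figure D1:**
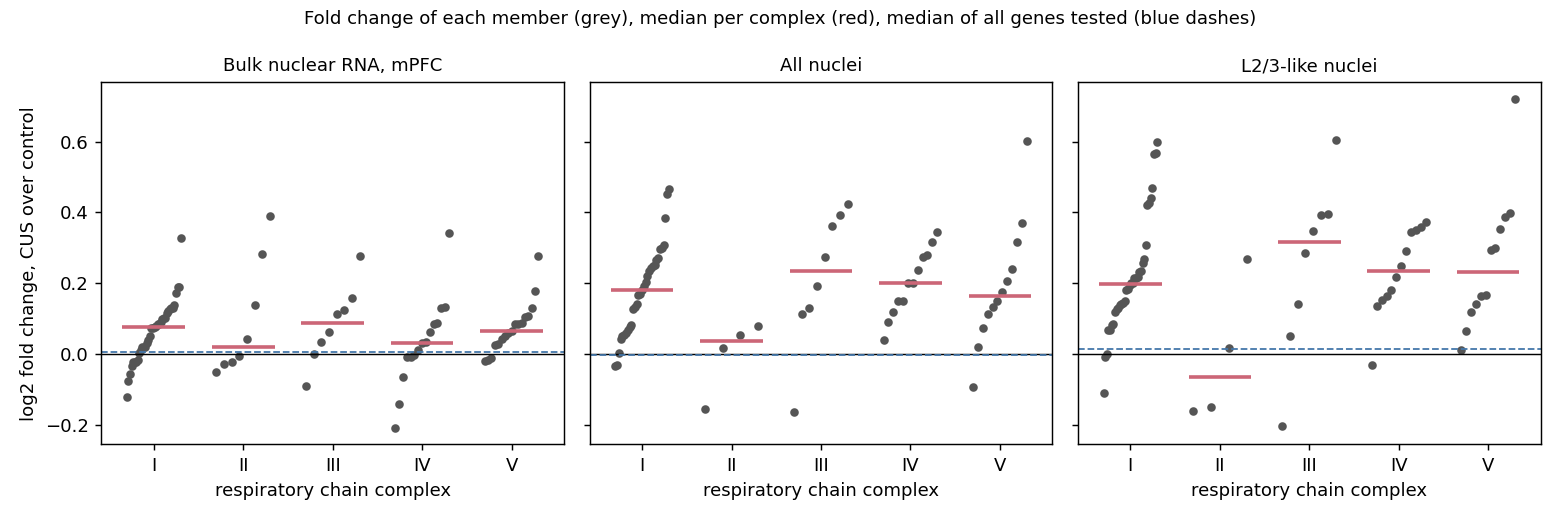
Log2 fold change, CUS over control, of each tested member (grey points, vertical axis) by complex (horizontal axis) in bulk nuclear RNA, in all nuclei and in L2/3-like nuclei. Red bars are the median of a complex and blue dashes the median of all genes tested. In all nuclei the medians of complexes I, III, IV and V lie between 0.16 and 0.23 and that of complex II at 0.036.

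In single nuclei, 62 of the 67 tested members were higher in CUS (92.5%, against 48.9% of all genes) and 0 members passed the test by edgeR. UMIs were summed per mouse over all 26699 nuclei and tested with edgeR's quasi-likelihood test at the FDR of 0.2 that the study used for nuclei. The study itself used the likelihood ratio test with a batch term. Of 5018 genes, 1 was called (0.0199%). Of the members 4 had an unadjusted p under 0.05, all higher (5.97%, against 4.13% of all genes), and DESeq2 and the likelihood ratio test also called 0. The smallest adjusted p of a member was 0.595. The median log2 fold change of the members was 0.18, against -0.0033 for all genes, with a range from -0.17 to 0.60. The groups overlapped for each of the 67 members tested, beside 2.01% of all genes that were higher in CUS without overlap.

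Cox8a, a small complex IV subunit, was at 191, 163, 193 and 174 CPM in the control mice and at 282, 167, 233 and 232 CPM in the CUS mice. CUS mouse 2 lay among the controls and the other 3 CUS mice lay above them all. Its log2 fold change was 0.34 (SE 0.14, edgeR adjusted p 0.595). Atp5k, the e subunit at which ATP synthase dimers are held together, was at 56.9, 92.2, 89.2 and 53.8 CPM in control and 157, 58.8, 125 and 107 CPM in CUS mice (0.60, SE 0.25), where CUS mouse 2 again lay among the controls and the other 3 CUS mice above them. Uqcr10 was at 78.0, 91.0, 103 and 65.8 CPM in control and 124, 75.6, 125 and 121 CPM in CUS mice (0.39, SE 0.17). Ndufa2, an accessory subunit of complex I, had 0.39 (SE 0.18), and these 4 were the members with an unadjusted p under 0.05.

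The core and catalytic subunits ranged on both sides of the members' median. Ndufs1 was at 87.6 to 99.1 CPM in control and 94.7 to 102 CPM in CUS mice (log2 fold change 0.05, SE 0.083). Sdha had 0.02 (SE 0.087), Sdhb 0.08 (SE 0.097) and Atp5a1 0.07 (SE 0.10). The catalytic Atp5b had 0.21 (SE 0.13), Ndufv1 0.20 (SE 0.12), Uqcrc1 0.19 (SE 0.12), Uqcrfs1 0.13 (SE 0.14) and the complex IV subunit Cox5a 0.12 (SE 0.13). The core protein Uqcrc2 was the lowest of all members, at 127 to 150 CPM in control and 107 to 139 CPM in CUS mice (-0.17, SE 0.10, edgeR adjusted p 0.615). Members that were also lower in CUS included Sdhd (-0.15), Atp5c1 (-0.09) and Ndufv2 (-0.03). By complex, 29 of 31 members of complex I were higher (median 0.18), 3 of 4 of complex II (0.036), 7 of 8 of complex III (0.23), 12 of 12 of complex IV (0.20) and 11 of 12 of complex V (0.16). The remaining 20 of the 87 members had too few UMIs for the test, among them Ndufb4, Atp5g1, Atp5g2, all 4 Sdhaf genes and the tissue-restricted forms.

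CUS mouse 2 lay apart from the other CUS mice. Members took 0.575, 0.565, 0.651 and 0.498% of the UMIs in control mice (mean 0.572% ± 0.062, SD, n = 4) and 0.772, 0.460, 0.688 and 0.693% in CUS mice (mean 0.653% ± 0.135, SD, n = 4, and 0.718% ± 0.047, n = 3, without CUS mouse 2). CUS mouse 2 had the lowest share of all 8 mice and the other CUS mice had the 3 highest. It was the lowest mouse for 39 of 67 members (15.6% of all genes tested) and CUS mouse 1 was the highest for 43 (1153 of all 5018 genes). The other 3 CUS mice were above every control for 37 members, beside 9.41% of all 5018 genes, a pattern looked for after CUS mouse 2 was seen to be low. Without CUS mouse 2, 66 of 68 members were higher in CUS, and the members' median was 0.30. Of the 68, 38 passed the test and all 38 were higher in CUS, beside 828 of 5125 genes (16.2%). They were 17 of 32 in complex I, 0 of 4 in complex II, 6 of 8 in complex III, 8 of 12 in complex IV and 7 of 12 in complex V, and included Cox4i1, Ndufa4, Uqcr10, Uqcrh, Atp5b and Atp5k. This mouse was singled out after its values in these genes were seen. Leaving out any other single mouse gave 0 calls among the members by edgeR. Without CUS mouse 1, the mouse highest for most members, 48 members were higher in CUS and the median was 0.10. Nothing in the labels sets CUS mouse 2 apart, and the values with all 4 CUS mice are the ones to read first. Striatal-like nuclei, named from markers as described below, fell into a larger and a smaller cluster. The larger held 185, 217, 248 and 107 nuclei in control and 102, 174, 102 and 64 in CUS mice. The smaller held 118, 116, 141 and 68 in control and 74, 99, 34 and 42 in CUS mice. These were out of 2944, 4214, 4235 and 1935 kept nuclei in control and 3320, 2908, 3041 and 4102 in CUS mice. The part of class make-up in the values over all nuclei was not tested.

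**Figure D2:**
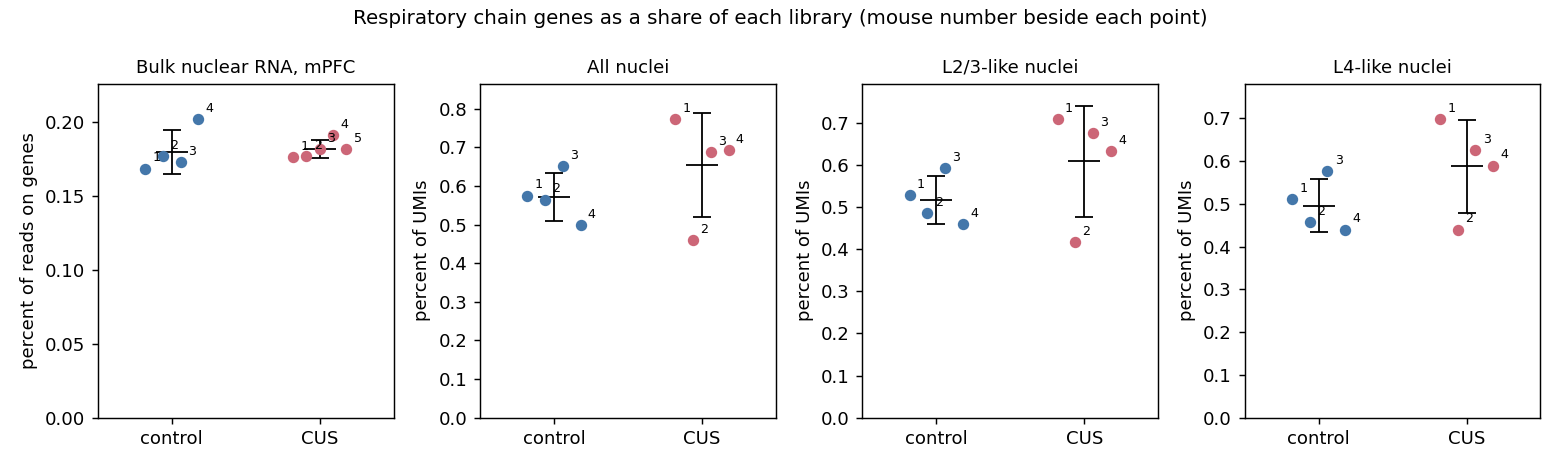
Share of each library taken by respiratory chain genes (vertical axis, percent of reads on genes for bulk and percent of UMIs for nuclei) in control (blue) and CUS (red) mice, with the mouse number beside each point and the mean ± SD in black. CUS mouse 2 of the nuclei, at 0.460% over all nuclei, lies below or among the controls while the other 3 CUS mice lie above them. Bulk and nuclei come from different mice.

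Ribosomal protein genes and depth were compared over the same nuclear libraries. Ribosomal protein genes, short genes of another kind, took 0.201% ± 0.013 of the UMIs in control and 0.237% ± 0.053 in CUS mice (SD, n = 4 each, exact permutation test, two-sided p = 0.257). They too were highest in CUS mouse 1 (0.299%) and lowest in CUS mouse 2 (0.172%). Of 19 tested ribosomal protein genes 18 were higher in CUS, with a median log2 fold change of 0.25 and 0 past the test by edgeR (5 with an unadjusted p under 0.05). With CUS mouse 2 left out, 20 of 20 were higher, 11 passed and the median was 0.37. The median number of UMIs per nucleus was 2099 ± 254 in control and 1908 ± 121 in CUS mice (exact permutation test, two-sided p = 0.286). CUS mouse 2 had the lowest median of all 8 mice for both UMIs (1804.5) and genes (1106), and CUS mouse 1 was at 1916 UMIs. The part of ribosomal protein genes and of depth in the members' values was not tested.

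The members are short genes, with a median span from start to end of 7.674 kb against 17.2 kb for protein-coding genes, and fold changes went with span in both assays. In bulk RNA, the 54 tested members under 10 kb had a median log2 fold change of 0.084, beside 0.081 for the 5063 other genes of that span, and the 24 members of 10 to 30 kb had 0.022 beside 0.019. Under 10 kb, 83.3% of members and 64.8% of other genes were higher in CUS in bulk. Of 82 ribosomal protein genes tested in bulk 47 were higher in CUS, with a median of 0.011 and 0 past the test by edgeR. In all nuclei the 44 members under 10 kb had 0.21 beside 0.12 for 513 other genes, and the 20 members of 10 to 30 kb had 0.081 beside 0.065. In that shortest range 97.7% of members and 81.5% of other genes were higher in CUS. In nuclei without CUS mouse 2 the medians were 0.36 beside 0.20 under 10 kb, with 97.8% and 89.1% higher, and 0.19 beside 0.10 at 10 to 30 kb. Other genes of 100 kb and over had a median of -0.049 in bulk and -0.086 in nuclei. Among members the Spearman correlation of span and fold change was -0.37 in bulk (83 genes) and -0.55 in all nuclei (67 genes), over genes that share the same libraries, and also -0.55 in nuclei without CUS mouse 2. In nuclei, other genes under 10 kb took 14.7% ± 1.4 of UMIs in control and 16.4% ± 1.4 in CUS mice, and those of 100 kb and over 42.1% ± 2.1 and 39.3% ± 3.2 (SD, n = 4 each). The part of span in the members' values was not tested further.

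**Figure D3:**
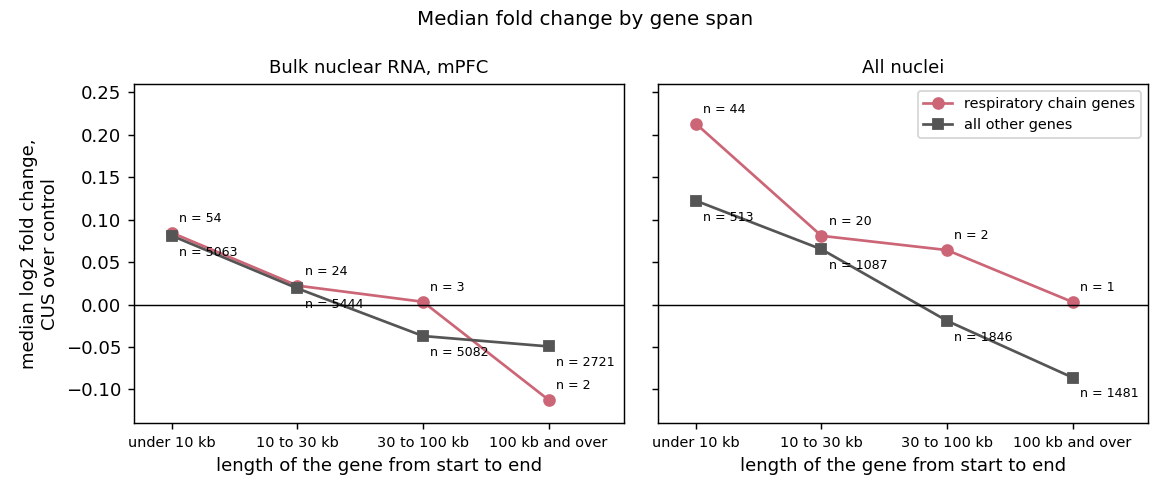
Median log2 fold change, CUS over control (vertical axis), of respiratory chain genes (red circles) and all other genes tested (grey squares) in 4 ranges of gene span (horizontal axis), with the number of genes beside each point. In bulk nuclear RNA the lines meet below 30 kb, with 0.084 and 0.081 under 10 kb, and in all nuclei the members lie above, with 0.21 and 0.12.

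Bulk and nuclear fold changes, from different mice, had little in common gene by gene. Of 67 members tested in both, 44 were higher in CUS in both, 18 were lower in bulk and higher in nuclei, 4 the reverse, and 1 was lower in both. Across these genes Pearson's r was 0.074 and Spearman's rho 0.11. With CUS mouse 2 left out of the nuclei, 47 of 68 were higher in both, with r of 0.092 and rho of 0.0998. Ndufb4 and Atp5g2, the members with the smallest p in bulk, had too few UMIs for the test in all nuclei. Uqcr10 and Atp5j2 were higher in CUS in both assays, by 0.28 and 0.39 and by 0.18 and 0.32 on the log2 scale.

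Within single classes of nuclei, 2 member genes passed the test: Atp5k in L2/3-like and Uqcr10 in L4-like excitatory nuclei, both higher in CUS. They were 2 of 129 calls over all genes in 24 classes and clusters (0.115% of the tests of all genes). The FDR was set within each class, and the rate of member calls was not compared with that share. The call of Atp5k was lost at a clustering resolution of 0.6 (edgeR adjusted p 0.208) and without TMM scaling (0.238), and that of Uqcr10 was lost with DESeq2. Nuclei were clustered and named from fixed marker genes, a name carrying "-like" because no deposited annotation was at hand. In L2/3-like nuclei (3681 nuclei, markers such as Cux2, Rasgrf2 and Enpp2), 64 of 70 members were higher (91.4%, against 52.8% of all genes) and 1 passed, beside 58 of 5375 genes (1.08%). In L4-like nuclei (3110 nuclei, markers such as Rorb and Kcnh5), 52 of 57 were higher (91.2%, against 49.4%) and 1 passed, beside 25 of 4575 genes (0.546%). An unadjusted p under 0.05 with a higher level was found for 16 members in L2/3-like nuclei (22.9%, against 6.29% of all genes) and for 11 in L4-like nuclei (19.3%, against 4.52%). The median log2 fold changes of the members were 0.20 and 0.22, against 0.013 and -0.0028 for all genes. In L2/3-like nuclei it was 0.13 without CUS mouse 1, 0.13 without control mouse 2 and 0.31 without control mouse 3.

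Atp5k in L2/3-like nuclei was at 53.2, 66.1, 75.1 and 56.2 CPM in control mice and at 154, 65.8, 112 and 89.9 CPM in CUS mice. It rose by 0.72 on the log2 scale (SE 0.20, edgeR adjusted p 0.166). CUS mouse 2 lay within the controls and the other 3 above them. Uqcr10 in L4-like nuclei was at 65.3, 64.7, 76.8 and 58.7 CPM in control and 113, 92.5, 114 and 104 CPM in CUS mice. It rose by 0.65 (SE 0.15, edgeR adjusted p 0.143), and here all 4 CUS mice, mouse 2 included, lay above all 4 controls. Ndufb10 and Ndufv1 were among the members without overlap in L4-like nuclei, 4 of 57 in all, beside 2.01% of all genes in that direction. For Uqcr10 in L2/3-like nuclei the log2 fold change was 0.40 (SE 0.19) and for Atp5k in L4-like nuclei 0.73 (SE 0.25), with edgeR adjusted p of 0.427 and 0.392.

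**Figure D4:**
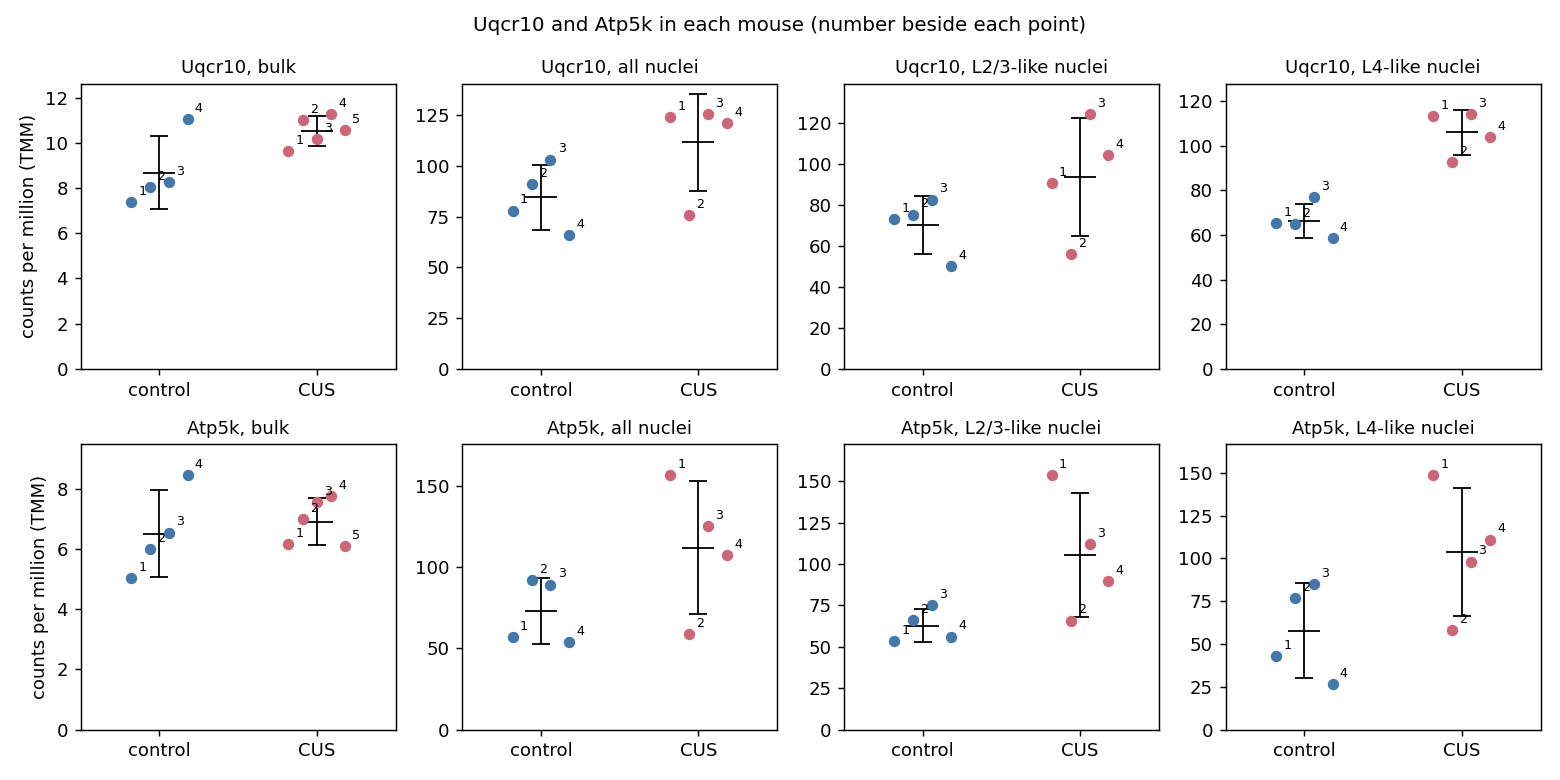
Level of Uqcr10 (top row) and Atp5k (bottom row) in CPM with TMM scaling (vertical axis) in each control (blue) and CUS (red) mouse, numbered, with mean ± SD in black, in bulk RNA, all nuclei, L2/3-like and L4-like nuclei. Uqcr10 in L4-like nuclei is the panel of the nuclei in which the groups do not overlap, at 58.7 to 76.8 CPM in control and 92.5 to 114 CPM in CUS mice.

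Other members with small p in L2/3-like nuclei were the accessory subunits that follow. Ndufa5 had a log2 fold change of 0.60 (SE 0.22), Ndufs6 0.56 (SE 0.22), Ndufa13, also known as GRIM-19, 0.47 (SE 0.18), Ndufb9 0.44 (SE 0.18) and Atp5j2 0.40 (SE 0.16), with edgeR adjusted p between 0.326 and 0.35. In the same nuclei Ndufs1 had 0.00 (SE 0.15), Ndufv1 -0.01 (SE 0.18), Sdha 0.02 (SE 0.14) and Uqcrc2 -0.20 (SE 0.14), whereas Atp5b had 0.30 (SE 0.15), Uqcrc1 0.28 (SE 0.16), Sdhb 0.27 (SE 0.14) and Cox5a 0.25 (SE 0.17). The complex III median was the highest at 0.32 and that of complex II, over 4 members, was -0.066. Both calls were sensitive to single mice. Without CUS mouse 2, 24 of 70 members passed in L2/3-like nuclei (13.3% of all genes) and 9 of 63 in L4-like nuclei (4.37% of all genes), all higher in CUS, and the members' medians were 0.31 and 0.30. Leaving out control mouse 3 gave 1 call in each class, and leaving out any of the other 6 mice gave 0. Ribosomal protein genes were mostly higher here too, with 21 of 22 tested higher in L2/3-like nuclei and 1 past the test, and 24 of 24 higher with 15 past the test without CUS mouse 2. In L2/3-like nuclei the 47 members under 10 kb had a median of 0.22, beside 0.17 for 610 other genes of that span.

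Over all 24 classes and clusters of more than 200 nuclei, 129 calls were made in 112166 tests of genes (0.115%), and 2 of them were of members. In 23 of the 24 the median fold change of the members was above that of all genes tested, with medians from 0.0048 to 0.32, but the classes share the same 8 mice and are not independent. Without CUS mouse 2 the members made 50 calls (beside 1.2% of all genes), and the median was above that of all genes in 22 of 24, with medians from -0.021 to 0.39. Without CUS mouse 1 the members made 0 calls by edgeR, beside 0.0473% of all genes. In L6-like nuclei 50 of 61 members were higher (82.0%, against 48.3% of all genes), 0 passed beside 0 of 4516 genes (0.0%), and 8 were higher with an unadjusted p under 0.05 (13.1%, against 3.61%). There 59 of 65 were higher and 6 passed without CUS mouse 2, beside 1.29% of all genes. In parvalbumin interneuron-like (Pv-like) nuclei 61 of 73 were higher (83.6%, against 50.8%), 0 passed by edgeR beside 1 of 4975 genes (0.0201%), and 10 were higher with an unadjusted p under 0.05 (13.7%, against 2.51%). The counts without CUS mouse 2 were 67 of 73 higher and 1 passed, beside 0.0983% of all genes. Whether the CUS difference was of another size in L2/3-like than in L6-like nuclei was tested for 61 members with an interaction term in edgeR's quasi-likelihood test, with the mouse as a block. Of these 0 passed, beside 9 of 4328 genes (0.208%), 2 had an unadjusted p under 0.05, and the likelihood ratio test also called 0. The difference was larger in L2/3-like nuclei for 34 of 61, with a median of 0.015 and a smallest adjusted p of 0.754. These were, without CUS mouse 2, 33 of 61, 0.017 and 0.709, with 0 calls by edgeR beside 0.116% of all genes and 2 at an unadjusted p under 0.05.

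Between classes the level of the chain differed far more than between control and CUS mice. In Pv-like nuclei members took 0.986% ± 0.180 of the UMIs (SD, n = 8 mice), in somatostatin-like interneurons 0.777% ± 0.134, in Vip-like interneurons 0.770% ± 0.172 and in astrocyte-like nuclei 0.711% ± 0.111. L2/3-like nuclei were at 0.563% ± 0.106 and L4-like nuclei at 0.542% ± 0.095. The lowest was a cluster led by Fyb2 (323 nuclei), at 0.378% ± 0.048. Neighbours in this order, such as somatostatin-like, Vip-like and astrocyte-like nuclei, lay within their spread over mice. These levels are a description without a test, since the same UMIs formed the classes. The share of free RNA in the droplets was not measured. An unnamed cluster led by Nefm stood above all, at 1.66% ± 0.39. The members Cox6c and Ndufa4 and the mtDNA-encoded mt-Nd1 were themselves among its leading genes. This cluster held 221 nuclei (5, 45, 13 and 13 in control and 75, 6, 36 and 28 in CUS mice) of low depth. Their median UMI count was 0.518 times that of their own mouse. Without it the members' share over all nuclei was 0.459 to 0.762% in CUS and 0.496 to 0.648% in control mice, still with 0 calls by edgeR, DESeq2 not being run there.

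The order of the classes was the same in every mouse at its ends. The Pv-like share was above the L2/3-like share in 8 of 8 mice, with a ratio of 1.58 to 1.85, and was the highest of the 23 classes other than the Nefm-led cluster in 8 of 8, while the Fyb2-led cluster was the lowest in 8 of 8. CUS mouse 2 was the lowest mouse in 20 of these 23 classes and CUS mouse 1 the highest in 14. The CUS mean was above the control mean in 22, and in 11 the 3 other CUS mice all lay above every control. The classes share the same 8 mice, so these counts are not independent. The pattern of the 3 mice was looked for after CUS mouse 2 was seen to be low.

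**Figure D5:**
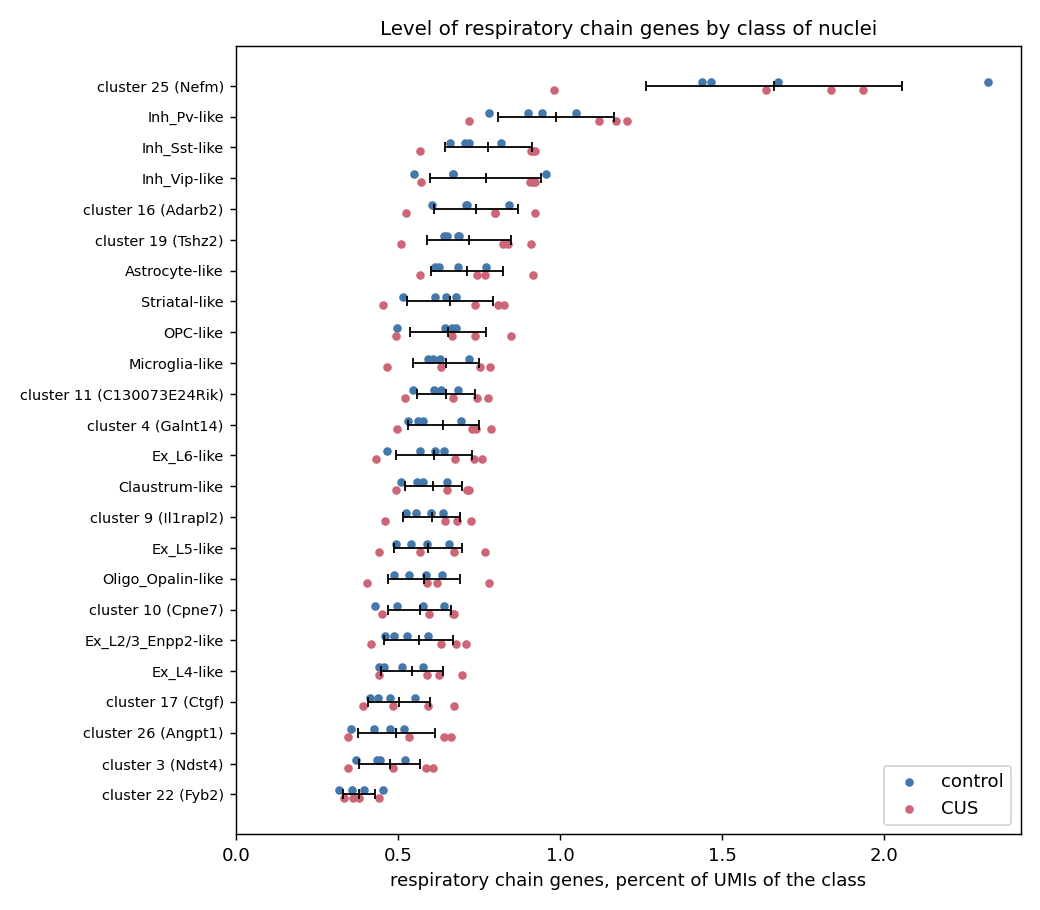
Share of UMIs taken by respiratory chain genes (horizontal axis, percent) in each class or cluster of more than 200 nuclei (vertical axis), with 1 point per control (blue) and CUS (red) mouse and the mean ± SD over 8 mice in black. After the Nefm-led cluster the Pv-like nuclei are highest at 0.986%, and the Fyb2-led cluster is lowest at 0.378%.

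The median ratio of Pv-like to L2/3-like level was above 1 in each complex. Of the 79 members with at least 100 UMIs in L2/3-like nuclei, 77 were higher in Pv-like nuclei (97.5%, against 54.2% of all 10065 genes with as many UMIs there). Their median ratio was 1.75, against 1.05 over all those genes, with a range from 0.799 for Ndufb4 to 2.54 for Uqcrh, the hinge protein of complex III. The median ratio was 1.94 in complex V, 1.80 in complex III, 1.68 in complexes I and IV and 1.30 in complex II. On the CPM scale without TMM, used for levels between classes, Atp5a1 was at 325 ± 36 CPM in Pv-like and 168 ± 23 in L2/3-like nuclei (SD, n = 8 mice), and the lowest Pv-like mouse was above the highest L2/3-like mouse, as for 15 of the 79 members (19.0%, against 8.06% of those genes). Uqcrh was at 199 ± 31 and 78.5 ± 15.3, Cox4i1 at 317 ± 54 and 196 ± 34, and Ndufa4 at 288 ± 77 and 165 ± 42 CPM. Cox8a differed little, at 228 ± 45 and 196 ± 51. Of the 78 members with at least 1000 UMIs in all, 65 had their highest mean in the Nefm-led cluster, which members help to mark, and 5 in Pv-like nuclei. Over the 23 classes other than that cluster, 47 of the 78 were highest in Pv-like nuclei.

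Cox6a2, the form of this complex IV subunit known from heart and skeletal muscle, was found mainly in 1 class. It was at 92.3 ± 32.1 CPM in Pv-like nuclei (267 UMIs in 1178 nuclei, 49.9 to 141 over the 8 mice), at 18.03 ± 10.01 in an unnamed cluster led by Adarb2 (25 UMIs), at 13.1 ± 11.9 in Vip-like (8 UMIs), at 8.30 ± 10.27 in oligodendrocyte-like (9 UMIs), at 8.36 ± 6.41 in somatostatin-like (11 UMIs) and at 1.73 ± 1.36 in L2/3-like nuclei (16 UMIs in 3681 nuclei). Every mouse had it in Pv-like nuclei above all its L2/3-like values. The general form Cox6a1 was at 257 ± 63 CPM in Pv-like and 174 ± 33 in L2/3-like nuclei. Pv-like nuclei thus held 267 of the 415 UMIs of Cox6a2 over all nuclei. Cox6b2, known from testis, had 58 UMIs over all nuclei, 20 of them in astrocyte-like nuclei (13.02 ± 10.32 CPM) and 11 in oligodendrocyte-like nuclei (13.8 ± 8.1 CPM). The other tissue-restricted forms had few counts, with 48 UMIs in all for Cox7a1, 18 for Cox4i2, 17 for Ndufa4l2 and 8 for Cox8b, and no class level is read from such counts.

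Genes around the chain were described from fixed lists. Of the 13 mtDNA-encoded subunits, 7 were tested in bulk nuclear RNA, and the source of such RNA in these libraries was not tested. All 7 were lower in CUS, with a median log2 fold change of -0.71, and mt-Nd4 passed the test, 1 of 7 beside 3.29% of all genes. It was at 3.44, 2.83, 6.09 and 4.93 CPM in control and at 1.85, 1.89, 2.86, 2.42 and 2.27 CPM in CUS mice and fell by 0.93 on the log2 scale (SE 0.22, edgeR adjusted p 0.0387). The summed mtDNA share was 0.0117% ± 0.0048 of reads in control (SD, n = 4) and 0.00725% ± 0.0021 in CUS mice (SD, n = 5; exact permutation test, two-sided p = 0.111). In all nuclei 4 of 5 tested were higher (median 0.19), 0 past the test by edgeR and 0 with an unadjusted p under 0.05, and without CUS mouse 2 again 4 of 5 (median 0.24) and 0 past the test by edgeR, with 0 at an unadjusted p under 0.05.

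Of 40 assembly factors 27 were higher in bulk, with a median of 0.042, and 2 passed the test, beside 51.3% of all genes that were higher and 3.29% that passed. Ecsit, which is also part of the complex I assembly machinery, was at 13.4 to 14.5 CPM in control and 15.2 to 17.5 CPM in CUS mice and rose by 0.28 (SE 0.065, edgeR adjusted p 0.0382). Foxred1, a complex I assembly factor, rose by 0.25 (SE 0.062, edgeR adjusted p 0.0495). In all nuclei Ecsit had a log2 fold change of 0.08 (SE 0.11, edgeR adjusted p 0.819), and Foxred1 had too few UMIs for the test. Of 13 genes of the tricarboxylic acid cycle, which feeds the chain, 5 were higher and Idh3g, a regulatory subunit of isocitrate dehydrogenase, passed the test, 1 of 13 beside the same 3.29%. It was at 26.8, 27.4, 30.6 and 30.3 CPM in control and 39.4, 31.2, 36.1, 41.6 and 42.01 CPM in CUS mice and rose by 0.40 (SE 0.087, edgeR adjusted p 0.0296). In all nuclei Idh3g had 0.23 (SE 0.15, edgeR adjusted p 0.615). Among 5 electron carriers 4 were higher in bulk and 0 passed, with 0 at an unadjusted p under 0.05.

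Of 11 regulators of mitochondrial genes 4 were higher in bulk and 0 passed by edgeR, with 2 at an unadjusted p under 0.05. Ppargc1a, the coactivator of mitochondrial biogenesis, had a log2 fold change of -0.15 (SE 0.073, edgeR adjusted p 0.268), Nrf1 -0.01 (SE 0.048), Esrra 0.10 (SE 0.082) and Tfam, which maintains mtDNA, 0.14 (SE 0.094). In all nuclei Ppargc1a had 0.01 (SE 0.11, edgeR adjusted p 0.972) and Nrf1 0.06 (SE 0.093), and Esrra and Tfam had too few UMIs for the test. Yy1 was at 42.9 to 46.8 CPM in control and 41.1 to 44.7 CPM in CUS mice in bulk (-0.07, SE 0.052, edgeR adjusted p 0.442). In all nuclei Yy1 was at 90.2, 76.6, 80.5 and 78.9 CPM in control and at 65.5, 63.5, 72.4 and 69.5 CPM in CUS mice (-0.27, SE 0.091, edgeR adjusted p 0.595), and all 4 CUS mice lay below all 4 controls. The log2 fold change without CUS mouse 2 was -0.22 (SE 0.093, edgeR adjusted p 0.202). In L2/3-like nuclei its log2 fold change was -0.34 (SE 0.15, edgeR adjusted p 0.4), and -0.31 (SE 0.16, edgeR adjusted p 0.29) without CUS mouse 2. The study, with its batch term and the likelihood ratio test, reported Yy1 as significantly lower in its L2/3_Enpp2 nuclei. By in situ hybridization it also counted fewer Yy1 RNA spots in layer 2/3 cells of CUS mice.

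The members with and without the YY1 letters printed above were set side by side, and the difference between them was not tested. In bulk 7 of the 10 were higher in CUS, with a median of 0.065, beside 46 of 60 other matched members with 0.068. In all nuclei 8 of 8 tested were higher with 0.19, beside 45 of 48 with 0.17, and in L2/3-like nuclei 8 of 9 with 0.27, beside 47 of 50 with 0.19. An unadjusted p under 0.05 was found in L2/3-like nuclei for 3 of 9 and 9 of 50, in all nuclei for 0 of 8 and 3 of 48, and in bulk for 1 of 10 and 4 of 60. Without CUS mouse 2 the medians were 0.34 beside 0.30 in all nuclei and 0.36 beside 0.30 in L2/3-like nuclei.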

How the data were processed

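The authors deposited read counts per gene for each bulk library (ribosomal-RNA-depleted, stranded total nuclear RNA, unique STAR alignments to mm10) and UMI counts per gene and barcode for each sNucDrop-seq library (mm10, Gencode vM13 annotation, exonic and intronic reads, 5000 barcodes per mouse). The bulk annotation and the use of introns there are not given in the sources used here. Each library is 1 mouse, and the annotation columns of the bulk files gave the biotype and span.

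Bulk counts were filtered with filterByExpr, scaled by TMM and tested with the quasi-likelihood test of edgeR 4.0.16 (R 4.3.3) at FDR 0.05 over all genes. Barcodes below 600 or above 5000 genes, or with 5% or more of UMIs from mtDNA, were dropped, and Scrublet in scanpy 1.11.5, run anew, removed the 15.2% of the 31486 left that scored above 0.2. The 26699 nuclei kept were clustered in Seurat 5.3.0 (2000 variable genes, 50 components, resolution 1). UMIs were summed per mouse, over all nuclei and per class of more than 200 nuclei, and genes with summed UMIs above 10% of the nuclei were tested at FDR 0.2. The study's batch term could not be used because the labels give no batch per mouse. CPM by mouse are TMM-scaled, whereas summed marker levels and levels compared between classes are not. The ribosomal protein share, the mtDNA share and the median UMIs per nucleus were compared with exact permutation tests (scipy 1.17.1). The members' own shares were not tested. Replicates differed beyond counting noise in every pair (chi-square per degree of freedom at least 2.91).

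Named genes were any member past the FDR in bulk or all nuclei, per complex the 2 smallest p in bulk and in all nuclei, the 6 smallest p in L2/3-like nuclei, 5 isoform sets and 9 core subunits. Members named for other reasons were picked after their values were seen, and some single-gene values are not reported here. The members and gene lists were chosen with earlier results of these data known. The fits were first tested on simulated counts. Alternatives were DESeq2 1.42.0, the likelihood ratio test, no TMM, no count filter, a replicate block, leaving out each mouse, no doublet filter, at least 1000 genes per nucleus, named cortical classes only, other resolutions and, added after seeing the data, leaving out the Nefm-led cluster and, for further nuclear results, CUS mouse 2. Promoters were matched by symbol (71) or synonym (2) for 73 of 88 members.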

Additional observations from a re-analysis of the deposited data

Results flagged for a closer look

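In 242 groups of 4 or 5 mice the gap of the most distant mouse to its nearest neighbour was compared with the range of the group, and 20 groups had a gap above the critical share of the range (0.829 for 4 mice, 0.71 for 5). Chance gives about 1 in 20 groups when the groups are independent. These are not, since most are genes measured in the same mice.

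In all nuclei CUS mouse 2 stood far below the other CUS mice, with a gap of 0.8873 of the range for Ndufa13, 0.902 for Ndufc2, 0.9158 for Uqcr10, 0.9074 for Uqcrfs1, 0.9087 for Cox6a1 and 0.9047 for Atp5j2. CUS mouse 1 stood above the others for Atp5a1 (0.8958).

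In L2/3-like nuclei CUS mouse 2 was low for Ndufa5 (0.8682) and Ndufc2 (0.9612), and CUS mouse 1 was high for Sdhb (0.9363), Uqcrc1 (0.8694) and Atp5a1 (0.9002). Among the controls, mouse 3 was high for Ndufa13 (0.8402) and Ndufa2 (0.8342), and mouse 2 was low for Cox8a (0.8701).

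In bulk RNA, control mouse 4 was high for Uqcrfs1 (0.8413). Among CUS mice, mouse 2 was high for Uqcrfs1 (0.724), mouse 5 for Ndufa5 (0.8214), mouse 4 for Cox7a2l (0.802) and mouse 3 for the share of reads on mtDNA-encoded subunits (0.7701).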

How the results depend on the processing

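In bulk 0 members were called, and 2 with DESeq2, 2 with the likelihood ratio test (Atp5g2 and Ndufb4) and 0 to 3 when each mouse was left out, the 3 (with Uqcr10 added) without control mouse 4, beside 2.74% of all genes. Over all nuclei 0 became 5 with no count filter (0.864% of all genes) and 0 to 38 when each mouse was left out. The 1 call in L2/3-like nuclei became 0 at resolution 0.6, 0 without TMM, 2 with no count filter (0.385% of all genes) and 0 to 24 without each mouse. The 1 call in L4-like nuclei became 0 with DESeq2, 2 with the likelihood ratio test (1.64% of all genes), 2 with no count filter (0.166%) and 0 to 9 without each mouse. Over all classes the 2 calls became 1 with DESeq2, 1 at resolution 0.6, 1 without TMM, 5 with the likelihood ratio test (0.314% of all genes), 4 with no count filter (0.0492%), 7 with a replicate block (0.295%) and 0 to 50 without each mouse. The cause was not tested, other than fewer mice or more genes in the fit. In bulk, all nuclei and L2/3-like nuclei the members' median log2 fold change stayed above 0 without TMM, with DESeq2 and without each mouse. When each mouse was left out it was 0.020 to 0.11 in bulk (0.030 without TMM), 0.10 to 0.30 in all nuclei and 0.13 to 0.31 in L2/3-like nuclei. Medians under the remaining alternatives were not compared. The difference in mtDNA share of bulk reads ranged from -0.00583 to -0.00235 percentage points, and was past 0.05 without CUS mouse 3 (-0.00536, exact permutation test, two-sided p = 0.0286). The difference in ribosomal protein share of bulk reads, -0.00141, ranged from -0.00635 to 0.00517 and changed sign without control mouse 4. The doublet alternative was not run for classes.

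Deviations of mice with the same replicate number had correlations of 0.025 to 0.15 in bulk and -0.45 to 0.40 in nuclei. So few and mixed values cannot tell whether the numbers pair the mice. With a replicate block 0 members were called by edgeR in bulk (1.29% of all genes), 0 over all nuclei (0.0199%), 1 in L2/3-like (2.38%) and 3 in L4-like nuclei (2.23%). Without the block the shares of all genes were 3.29% in bulk, 1.08% in L2/3-like and 0.546% in L4-like nuclei. In nuclei, pairs 1 and 3 correlated above 0.1 and pairs 2 and 4 did not. The members' median level varied between mice of 1 group with an SD of 0.055 on the log2 scale in bulk, 0.23 in all nuclei and 0.24 in L2/3-like nuclei, which limits the differences that 4 or 5 mice a group can show.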

Other observations

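Barcodes with fewer than 600 genes were left out of all comparisons. Respiratory chain genes took 0.798, 0.496 and 0.885% of their UMIs in control mice 1, 2 and 4, from 1539, 113 and 2701 barcodes, and 0.943, 0.531, 0.768 and 0.579% in CUS mice 1 to 4, from 917, 1528, 1368 and 80 barcodes. Control mouse 3 had 0 such barcodes.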
